A study of Mus musculus with 20 samples.

Results

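Fibronectin, versican and 7 secreted proteins of the extracellular matrix were followed in orthotopic mouse colorectal tumours grown with and without galunisertib, a small molecule that blocks the kinase of the type I receptor for TGF-beta. The genes were Fn1, Vcan, Tnc, Sparc, Postn, Thbs2, Tgfbi, Mgp and Ccdc80. They were taken by name, with earlier results of these data known. Each was read from the probe set that carries its symbol alone in the platform annotation and has the highest mean over the 20 arrays. They are 9 of 17097 genes with such a probe set. All 9 passed the filter on dim genes, which left 15556 genes for testing.

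Each tumour grew in the caecum of a C57BL/6J mouse from 1 of 5 organoid lines (MTO), and each line gave 2 control and 2 treated tumours. Per the labels, MTO68 and MTO93 were parental lines of genotype LAKTP, MTO140 was an LAKTP line of type LiM, MTO54 a parental LAKP line and MTO207 a parental LAKT line. The meaning of the genotype letters is not given in the labels. MTO140 was injected as intact spheroids under the caecal serosa, while the other lines first grew under the skin and were then moved to the caecum as tumour pieces, so graft route and line go together for MTO140. Treated mice received 10 mg of galunisertib by gavage 2 times per day from day 11 until they were killed at 5 weeks. What control mice were given is not stated. Each line had its own array strip, so a level difference between lines cannot be told apart from one between strips, whereas treated and control tumours shared a strip.

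Whole pieces of tumour were extracted, so each value sums RNA of tumour cells and of the host's fibroblasts, vessels and immune cells. Fewer cells of a type and less RNA per cell cannot be told apart in such samples. Values are log2 RMA values, on which a step of 1 is a doubling of signal, and levels of different genes are not compared because each probe set has its own response. Markers of intestinal epithelium and of fibroblasts were both measured, with 11 of 11 and 11 of 12 list genes past the filter (Pdgfra did not pass). MTO68 control replicate 2 stood apart from the other 3 arrays of its line. The SD of its values was 1.47 against 1.76 to 1.82, the mean of 7 hybridization control probe sets was 10.2 against 8.95 to 9.57, and its epithelial marker score was -0.67 against -0.02 to 0.28. In the MTO207 controls the SDs were 1.46 each, the hybridization control means 10.4 and 10.3 and the epithelial scores -0.72 and -0.27. The array thus stood apart within its line but not from the range of the series. The fibroblast marker score of MTO68 control replicate 2, -0.53, was the lowest of the 10 controls. It was 0.65 in the other control of that line, and -0.77 and -0.24 in its treated tumours. Results that rest on MTO68 control replicate 2 are given with and without it.

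As background, fibronectin is secreted as a dimer and is pulled into fibrils by integrins, and these fibrils are a base on which collagen and other matrix proteins settle. Versican is a large chondroitin sulfate proteoglycan that binds hyaluronan and loosens the matrix. Matricellular proteins such as tenascin-C, SPARC, periostin and thrombospondin-2 sit in the matrix and act on cells through integrins and other receptors more than they bear load. In tumours of the intestine much of this matrix is made by fibroblasts, and TGF-beta is a classic inducer of fibronectin, periostin and TGFBI.

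RefSeq promoter windows of build GRCm38.p6, which run from 250 bases before to 50 bases after a transcript start, were matched for 6 of the 9 genes (8 windows; Fn1, Mgp and Ccdc80 were not matched). Windows of 3 genes are shown because they hold the letters CAGACA, the core of the SMAD-binding CAGA box. Capitals mark CAGACA or its reverse complement TGTCTG, and TATAAA or its reverse complement TTTATA. All 3 genes lie on the minus strand, at chr4:64046887-64047186 for Tnc, chr11:55420031-55420330 for Sparc and chr17:14694213-14694512 for Thbs2.
Tnc: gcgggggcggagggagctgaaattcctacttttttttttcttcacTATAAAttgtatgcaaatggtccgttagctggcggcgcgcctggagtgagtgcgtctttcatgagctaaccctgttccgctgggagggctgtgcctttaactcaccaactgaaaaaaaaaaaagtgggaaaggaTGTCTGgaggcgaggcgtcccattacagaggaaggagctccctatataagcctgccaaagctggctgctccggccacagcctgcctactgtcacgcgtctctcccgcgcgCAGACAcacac
Sparc: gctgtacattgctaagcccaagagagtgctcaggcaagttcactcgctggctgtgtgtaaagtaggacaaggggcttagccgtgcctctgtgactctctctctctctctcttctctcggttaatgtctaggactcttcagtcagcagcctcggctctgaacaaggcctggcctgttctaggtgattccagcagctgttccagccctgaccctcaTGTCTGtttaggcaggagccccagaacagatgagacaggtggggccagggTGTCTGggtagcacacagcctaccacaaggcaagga
Thbs2: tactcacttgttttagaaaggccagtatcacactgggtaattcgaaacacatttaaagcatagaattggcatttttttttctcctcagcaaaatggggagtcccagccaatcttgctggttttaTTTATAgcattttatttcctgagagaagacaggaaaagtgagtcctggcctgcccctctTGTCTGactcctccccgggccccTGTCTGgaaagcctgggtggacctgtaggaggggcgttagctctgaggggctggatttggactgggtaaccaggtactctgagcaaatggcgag
CAGACA occurred on either strand in 3 of the 6 genes and 4 of the 8 windows (Tnc with both of its windows, Sparc and Thbs2), against 21.0% of 32851 promoters in the table. In the Thbs2 window both matches lay before the start, at -67 and -44, and in the Sparc window they lay at -36 and 15. TATAAA was found in 3 of 6 genes and 4 of 8 windows, those of Tnc (2), Postn and Thbs2, against 13.6% of promoters. The 2 Tnc windows overlap, so their matches are partly the same sites counted in each. The SMAD palindrome GTCTAGAC, the AP-1 letters TGANTCA and the TEAD letters GGAATG were in none of the 8 windows and in 0.213%, 7.81% and 14.7% of all promoters. No marked match overlapped another motif. Such matches describe letters in these windows and say nothing about binding.

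Treated and control tumours were compared within lines to ask what blocking the TGF-beta receptor does to these matrix genes. All 9 genes had a lower mean in treated tumours over the 5 lines, with log2 differences from -0.49 for Vcan to -1.12 for Ccdc80 and a median of -0.67, while the median over all genes tested was 0.00. Fn1, Mgp and Ccdc80 had the largest differences, and their treated levels were 49.3%, 49.1% and 46.1% of control on the linear scale. None of the 9 passed an adjusted p of 0.05 in limma with the line as a block, and neither did any of the 15556 genes (0% called, smallest adjusted p 0.0862). Of the 9, 8 had an unadjusted limma p under 0.05, all lower, where 3.66% of all genes were lower at that level. The genes Fn1, Tnc, Sparc, Tgfbi, Mgp and Ccdc80 were lower in 5 of 5 lines, a pattern that 3.28% of all genes showed. Because the list was chosen with earlier results of these data known, shares of all genes here and below describe it and do not test it. The plot of levels in 20 tumours shows the individual values.

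**Figure D1:**
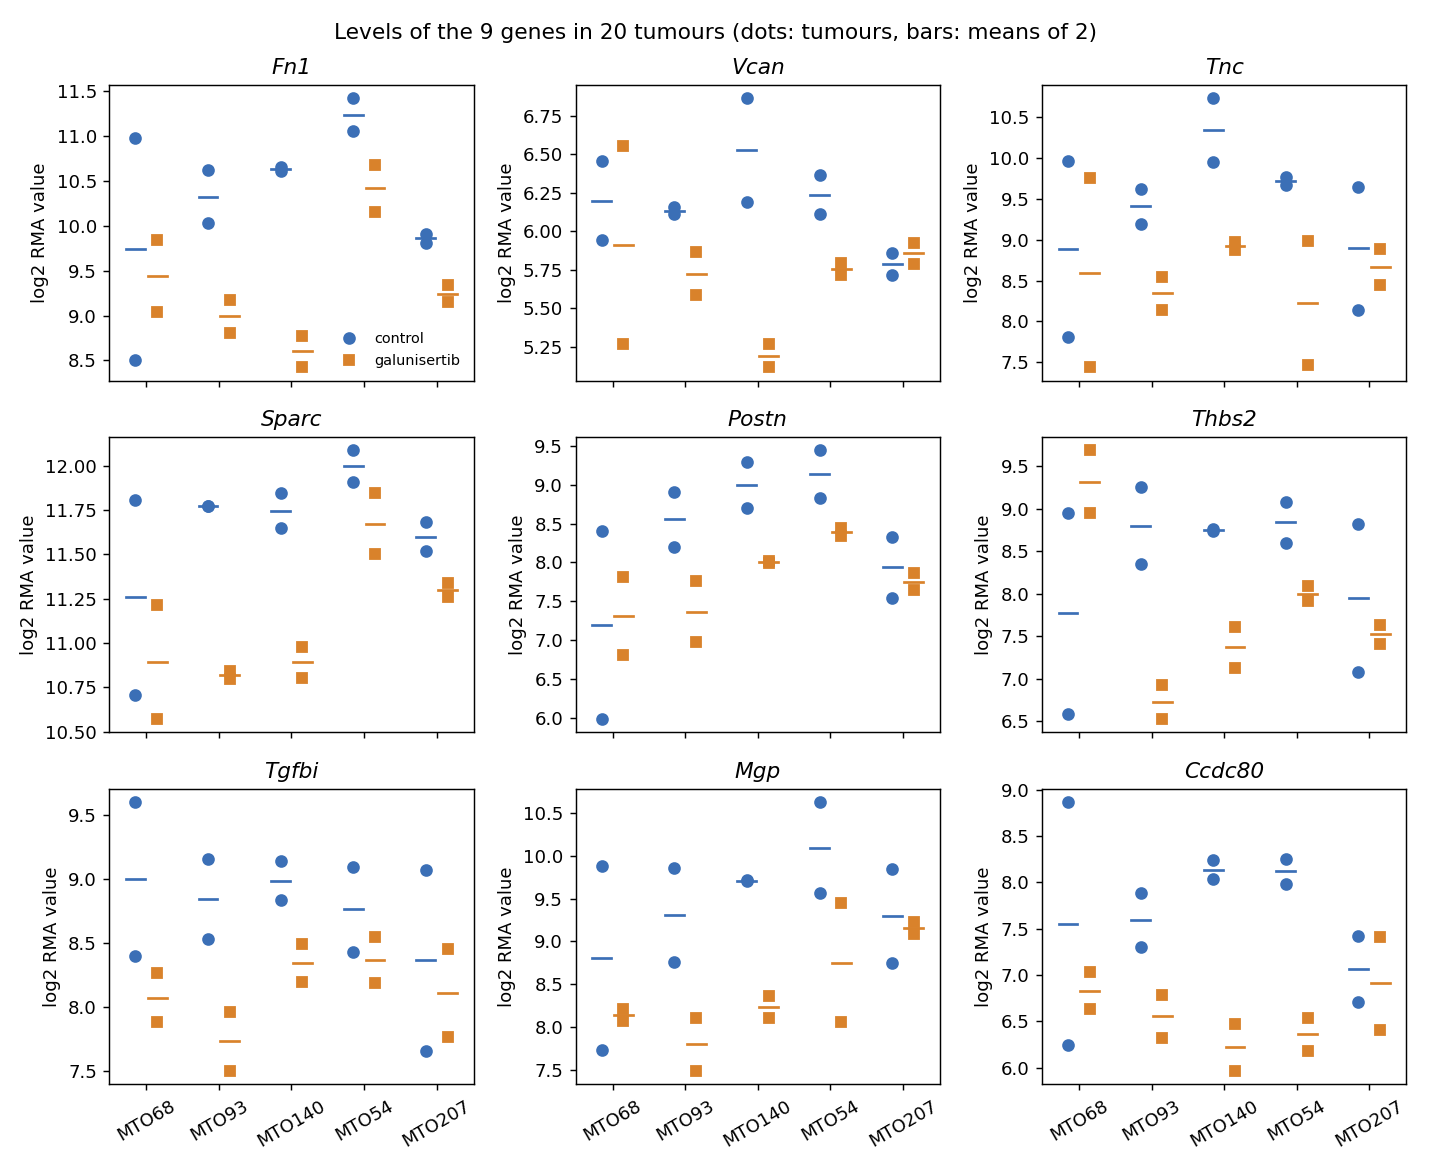
Log2 RMA value (y axis) of each of the 9 genes in 20 tumours, by organoid line (x axis). Blue circles are control and orange squares galunisertib-treated tumours, and short bars are means of 2 tumours. In MTO93 and MTO140 both orange points lie below both blue points for 9 of 9 genes, and in MTO68 the lower blue point is control replicate 2.

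Fn1 encodes fibronectin and was read by probe set 1426642_PM_at, its only one. In MTO93 the control tumours measured 10.62 and 10.03 and the treated tumours 8.80 and 9.18. In MTO140 they measured 10.65 and 10.61 against 8.77 and 8.42. Both lines thus had treated tumours well under their controls, and MTO140 had the largest difference of the 5 lines, -2.03 (SE 0.55). In MTO54 the controls were at 11.42 and 11.05 and the treated tumours at 10.16 and 10.68. In MTO207 they were at 9.81 and 9.91 against 9.34 and 9.15. The groups again did not overlap, but the gaps were smaller. In MTO68 the controls split into 10.98 and 8.51, and the treated tumours, at 9.04 and 9.84, lay between them. Over 5 lines the difference was -1.02 (SE 0.26, limma adjusted p = 0.222), and without MTO68 control replicate 2 it was -1.25 (SE 0.17, limma adjusted p = 0.00586). In control tumours Fn1 was highest in MTO54, with a mean of 11.24 ± 0.26, then 10.63 ± 0.03 in MTO140, 10.32 ± 0.42 in MTO93, 9.86 ± 0.07 in MTO207 and 9.74 ± 1.75 in MTO68 (SD, n = 2 each). MTO140 and MTO93 overlapped in this order, as did MTO207 and MTO68.

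Vcan encodes versican and had the smallest difference of the 9. Its probe set 1421694_PM_a_at ran from 5.72 to 6.86 in controls, with a median of 6.13, and from 5.12 to 6.55 in treated tumours, with a median of 5.75. The ranges overlapped, and 5 of 10 treated tumours lay below the lowest control. The difference over 5 lines was -0.49 (SE 0.17, limma adjusted p = 0.441). It was largest in MTO140, where controls of 6.86 and 6.19 stood against 5.12 and 5.27 after treatment, a difference of -1.33 (SE 0.33, limma adjusted p = 0.684). In MTO207 the difference was 0.07 (SE 0.33), the only line in which Vcan was not lower. Of 4 further Vcan probe sets, those above the filter level of 4.16 on all 20 arrays differed by -0.24 and -0.41. The other pair, under that level on every array, differed by -0.07 and 0.00. Control means of MTO140, MTO54, MTO68 and MTO93, between 6.13 and 6.53, overlapped from one to the next, and MTO207 was lowest at 5.79 ± 0.10 (SD, n = 2).

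Tenascin-C, encoded by Tnc, is a hexameric glycoprotein of wounds and tumour stroma. Its probe set 1416342_PM_at ran from 7.81 to 10.73 in controls, with a median of 9.66, and from 7.44 to 9.75 in treated tumours, with a median of 8.71. The 2 groups overlapped over most of their range. In MTO54 the controls measured 9.67 and 9.77 and the treated tumours 8.99 and 7.46, the largest line difference at -1.50 (SE 0.76). The 4 tumours of MTO207 were mixed, with controls at 8.14 and 9.65 around treated tumours at 8.89 and 8.45. Over 5 lines Tnc differed by -0.90 (SE 0.33, limma adjusted p = 0.487). The second Tnc probe set, with a mean of 3.30, was below the filter level of 4.16 on all arrays and is not read here. Control tumours ranked from MTO140 at 10.34 ± 0.55 over MTO54 at 9.72 ± 0.07 and MTO93 at 9.41 ± 0.30 to MTO207 at 8.90 ± 1.07 and MTO68 at 8.89 ± 1.53 (SD, n = 2 each). The last 3 of these overlapped from one to the next.

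Sparc encodes a collagen-binding glycoprotein also known as osteonectin, and was lower in 5 of 5 lines. In MTO93 its probe set 1448392_PM_at gave 11.77 in both controls and 10.84 and 10.80 in treated tumours. In MTO140 controls of 11.65 and 11.85 stood against 10.98 and 10.80. Treated tumours of these lines were close to each other, and the differences were -0.96 and -0.86 (SE 0.28 each). In MTO54 the values were 12.09 and 11.91 against 11.50 and 11.85, and in MTO207 they were 11.68 and 11.52 against 11.26 and 11.34. Here the groups were also separate, by less. In MTO68 the controls were at 11.81 and 10.71 and the treated tumours at 10.57 and 11.22, and the groups overlapped. Sparc had the smallest limma p of the 9 genes, with a difference over 5 lines of -0.56 (SE 0.13, adjusted p = 0.158). Without MTO68 control replicate 2 the difference was -0.65 (SE 0.10, limma adjusted p = 0.0174). A second Sparc probe set gave -0.71 (SE 0.18) and was lower in 5 of 5 lines. Control means ran from 12.00 ± 0.13 in MTO54 to 11.26 ± 0.78 in MTO68 (SD, n = 2), and lines after MTO54 overlapped from one to the next.

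Periostin, encoded by Postn, is a fibroblast protein that helps crosslink collagen. Its probe set 1423606_PM_at ran from 5.98 to 9.45 in controls, with a median of 8.55, and from 6.80 to 8.45 in treated tumours, with a median of 7.83. The lowest of all 20 values was a control, MTO68 replicate 2, and 5 of 10 controls lay above every treated tumour. The difference was largest in MTO93, at -1.19 (SE 0.60), then -0.99 for MTO140, -0.74 for MTO54 and -0.18 for MTO207, and for MTO68 it was 0.12, or -1.09 (SE 0.48) without control replicate 2. Over 5 lines it was -0.60 (SE 0.26, limma adjusted p = 0.607), and without MTO68 control replicate 2 it was -0.82 (SE 0.18, limma adjusted p = 0.0627). Control means ran from 9.14 ± 0.44 in MTO54 to 7.19 ± 1.71 in MTO68 (SD, n = 2), the latter set by replicate 2 (limma F test over the lines, adjusted p = 0.114, and 0.0981 without that tumour). Each line overlapped the next in that order.

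Thbs2 encodes thrombospondin-2, a matricellular protein that restrains vessel growth, and it was the least even of the 9. Its probe set 1422571_PM_at gave 9.25 and 8.35 in MTO93 controls and 6.53 and 6.93 after treatment, a mean shift of -2.07 (SE 0.63). In MTO140 the values were 8.76 and 8.74 against 7.61 and 7.13, and in MTO54 they were 9.08 and 8.60 against 7.91 and 8.09. These 3 lines had separate groups with treated tumours below. In MTO207 controls of 8.82 and 7.08 lay around treated values of 7.41 and 7.63. In MTO68 the order turned, with controls at 8.95 and 6.59 and treated tumours at 9.69 and 8.95, a difference of 1.55 (SE 0.63, limma adjusted p = 0.123). That value leans on control replicate 2, and without it the difference in MTO68 was 0.37 (SE 0.56). The second Thbs2 probe set gave 1.04 in MTO68. Over 5 lines Thbs2 differed by -0.63 (SE 0.38, limma adjusted p = 0.690), and without that control by -0.96 (SE 0.26, adjusted p = 0.190), which moved the value by more than 1.5 times. Control means, from 8.84 ± 0.33 in MTO54 to 7.77 ± 1.67 in MTO68 (SD, n = 2), overlapped from each line to the next.

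Tgfbi encodes TGFBI, an integrin-binding matrix protein named for its induction by TGF-beta. Its probe set 1448123_PM_s_at, of a class whose probes can match more than 1 transcript, ran from 7.66 to 9.60 in controls, with a median of 8.96, and from 7.50 to 8.55 in treated tumours, with a median of 8.20. Of 10 controls, 6 lay above every treated tumour. Tgfbi was the one gene of the 9 whose treated tumours in MTO68, at 7.89 and 8.27, both lay below the controls, at 9.60 and 8.40. The line difference was -1.11 (SE 0.47) in MTO93, -0.93 in MTO68 and -0.25 (SE 0.47) in MTO207, and without control replicate 2 the MTO68 value was -1.53 (SE 0.50). Over 5 lines it was -0.67 (SE 0.20, limma adjusted p = 0.320), and a second probe set gave -0.52 (SE 0.19), lower in 5 of 5 lines. Control means lay between 9.0 ± 0.85 in MTO68 and 8.37 ± 1.00 in MTO207 (SD, n = 2), and all neighbours overlapped.

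Mgp encodes matrix Gla protein, an inhibitor of calcification that needs vitamin K-dependent carboxylation. In MTO93 its probe set 1448416_PM_at gave 9.86 and 8.76 in controls and 7.49 and 8.11 in treated tumours. In MTO140 both controls were at 9.71 and the treated tumours at 8.10 and 8.37, and in MTO54 controls of 10.63 and 9.57 stood against 8.06 and 9.45. In all 3 lines treated tumours were the lower pair, narrowly so in MTO54. In MTO207 the values were 9.84 and 8.75 against 9.08 and 9.22, and in MTO68 they were 9.88 and 7.74 against 8.21 and 8.07, with overlap in both. Over 5 lines Mgp differed by -1.03 (SE 0.28, limma adjusted p = 0.263), and 7 of 10 controls lay above every treated tumour. Without MTO68 control replicate 2 the difference was -1.21 (SE 0.24, limma adjusted p = 0.0457). Control means ran from 10.10 ± 0.75 in MTO54 to 8.81 ± 1.51 in MTO68 (SD, n = 2), with all neighbours overlapping.

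Ccdc80 encodes a secreted matrix-associated protein studied mainly in fat cells and had the largest difference of the 9. Its probe set 1424186_PM_at gave 8.24 and 8.04 in MTO140 controls and 6.47 and 5.97 in treated tumours, and 8.26 and 7.98 against 6.54 and 6.18 in MTO54. In these 2 lines the differences were -1.92 and -1.76 (SE 0.60 each). In MTO93 the values were 7.88 and 7.31 against 6.79 and 6.33, again without overlap. In MTO207 they were 7.42 and 6.71 against 7.41 and 6.41, and the groups were mixed. In MTO68 the controls, at 8.87 and 6.24, lay around the treated tumours, at 6.63 and 7.03. Over 5 lines the difference was -1.12 (SE 0.28, limma adjusted p = 0.222), and 7 of 10 controls lay above every treated tumour. Without MTO68 control replicate 2 it was -1.33 (SE 0.22, limma adjusted p = 0.0209). A second probe set gave a smaller value, -0.45 (SE 0.09), lower in 5 of 5 lines, so the size depends on the probe set. Control means were 8.14 ± 0.14 in MTO140 and 8.12 ± 0.19 in MTO54, which overlapped, and lay between 7.06 and 7.59 in the other lines.

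Read by line, the 9 genes were lower in 42 of 45 gene-line pairs. Both treated tumours lay below both controls in 29 of the 45 pairs and above them in 0, where 19.6% of the pairs of all genes had treated tumours below. In MTO93 and MTO140 this held for 9 of 9 genes, with median differences of -1.11 and -1.38, against 14.4% and 12.6% of all genes in those lines. In MTO54 it held for 8 of 9, all but Tgfbi, with a median of -0.82, against 16.4% of all genes. In MTO207 the median was -0.23 and the groups were separate for Fn1 and Sparc alone, 2 of 9, against 31.6% of all genes, so this count is no higher than the background of that line. In MTO68 the median was -0.31 and Tgfbi alone was separate, 1 of 9, against 23.2% of all genes. Without control replicate 2 the MTO68 median was -1.37 and 8 of 9 genes were lower, against 1 remaining control tumour. Ccdc80 was then at -2.04, Mgp at -1.73, Fn1 at -1.54, Tnc at -1.37, Sparc at -0.92 and Vcan at -0.55, each moved by more than 1.5 times. Control replicate 2, in turn, lay below both treated tumours for Fn1, Postn, Thbs2, Mgp and Ccdc80. It lay between them for Vcan, Tnc and Sparc, and above both for Tgfbi. For Fn1, Postn, Mgp and Ccdc80 both treated tumours lay between the controls, so the direction in MTO68 depends on which control is kept.

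**Figure D2:**
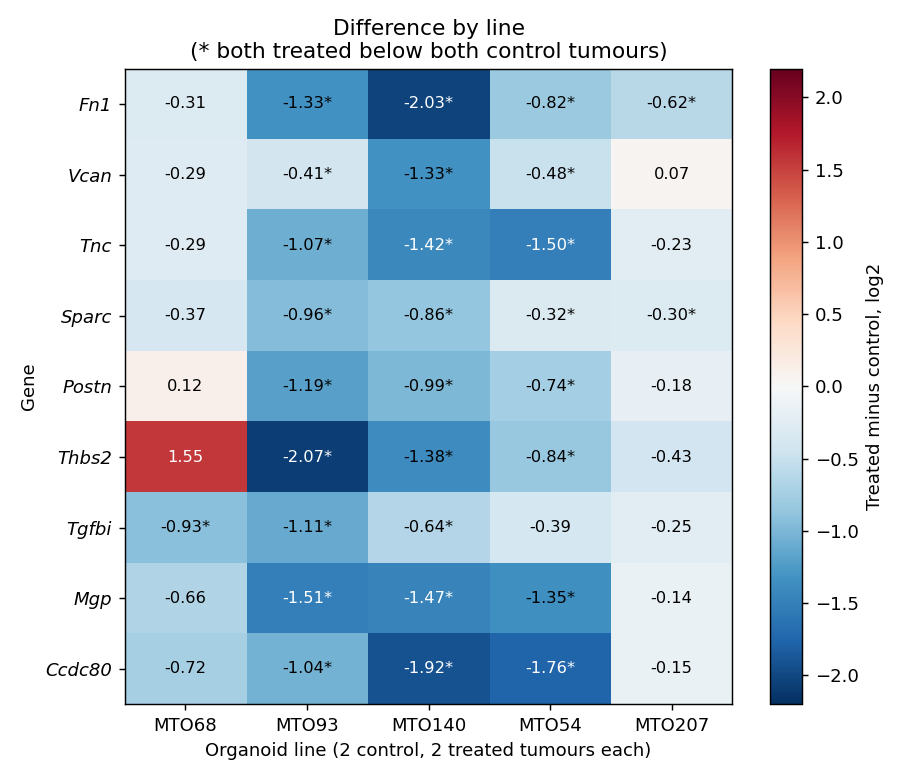
Treated minus control (log2, colour and printed value) for each of the 9 genes (rows) in each organoid line (columns, 2 control and 2 treated tumours each). An asterisk marks pairs in which both treated tumours lay below both controls, which is 29 of 45. The 3 values above 0 are Thbs2 and Postn in MTO68 and Vcan in MTO207.

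No member passed in a single line in limma with all arrays, where 2.01% of all genes were called in MTO68 and 0.00643% in MTO140, and 0% were called in each of MTO54, MTO93 and MTO207. With MTO68 control replicate 2 left out, Fn1 passed in MTO140 at the same difference of -2.03 (SE 0.28, limma adjusted p = 0.0412), where 0.0129% of all genes were called. The F test for a difference of the effect between lines called none of the 9 genes and 0.0643% of all genes. Thbs2 had the smallest p of the 9 (limma F test, adjusted p = 0.563), so the unequal line values above are not shown to differ. Between control tumours of the 5 lines, none of the 9 passed either, with 2.80% of all genes called. Without MTO68 control replicate 2, Fn1 (limma adjusted p = 0.0148) and Ccdc80 (adjusted p = 0.0235) passed, 2 of 9, but so did 47.1% of all genes. MTO54 had the highest control mean for Fn1, Sparc, Postn, Thbs2 and Mgp, and MTO140 for Vcan, Tnc and Ccdc80.

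The 3 LAKTP lines were also read as a group of lines. Their mean differences ran from -0.63 for Thbs2 to -1.23 for Ccdc80, with Fn1 and Mgp at -1.22 each, and limma adjusted p between 0.141 for Sparc and 0.604 for Thbs2. None of the 9 passed, and 0.00643% of all genes did. Without MTO68 control replicate 2 the differences ran from -0.76 for Vcan to -1.66 for Ccdc80, and the genes that passed follow. Fn1 was at -1.64 (SE 0.17, limma adjusted p = 0.00154), Sparc at -0.91 (SE 0.11, adjusted p = 0.00459), Ccdc80 at -1.66 (SE 0.22, adjusted p = 0.00649) and Mgp at -1.57 (SE 0.31, adjusted p = 0.0440), where 0.411% of all genes were called lower.

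Over all 5 lines, leaving out MTO68 control replicate 2 gave 43 called genes, all lower, which is 0.276% of those tested. They included 4 of the 9, Fn1, Sparc, Mgp and Ccdc80. The median over the 9 genes was then -0.96, with the all-gene median at 0.01, and the other 5 genes had limma adjusted p between 0.0627 and 0.298. The control left out is the lowest of 10 controls for 7 of the 9 genes, with Vcan and Tgfbi the exceptions.

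**Figure D3:**
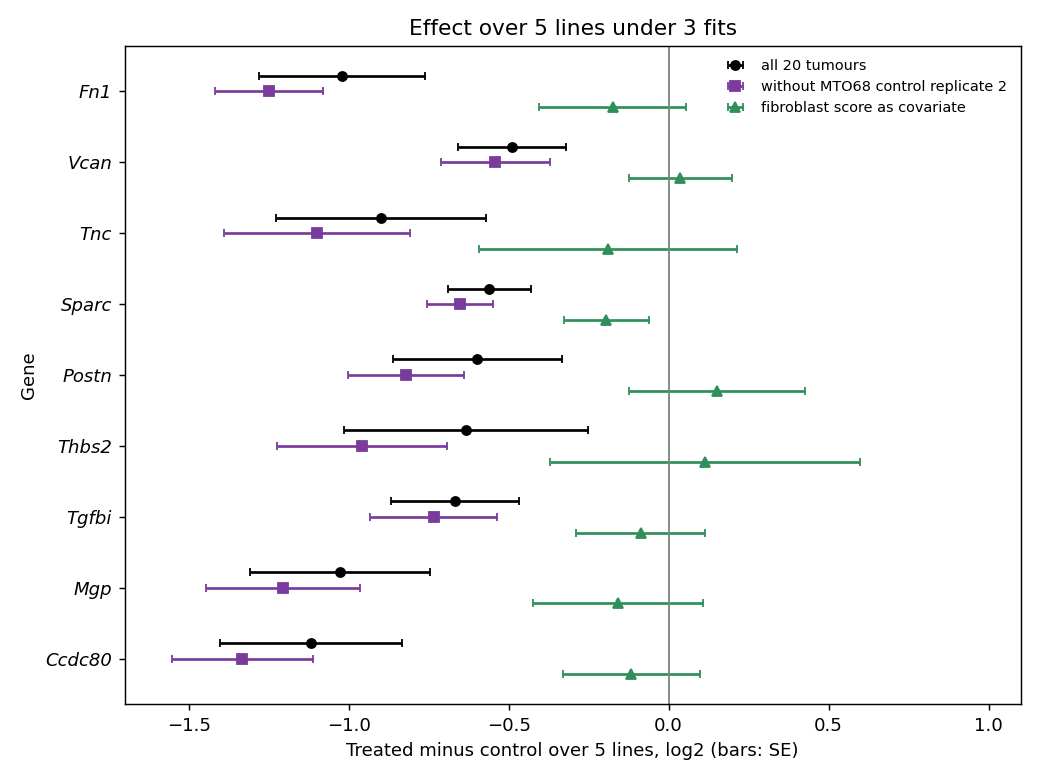
Treated minus control over 5 lines (x axis, log2; bars are SE) for each of the 9 genes (y axis) in 3 fits. Black circles use all 20 tumours, purple squares leave out MTO68 control replicate 2, and green triangles carry the fibroblast score as a covariate. Purple values are lower than black ones for 9 of 9 genes, and green values lie between -0.19 and 0.15.

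Fibroblast markers moved with the 9 genes. All 11 fibroblast markers tested had lower means in treated tumours, with a median of -0.49, 9 of them at an unadjusted limma p under 0.05 and 0 called. The fibroblast score of a tumour, the mean of these markers with each centred on its mean, ran from -0.53 to 0.78 in controls and from -0.77 to 0.13 in treated tumours. With this score as a covariate the treatment term was -0.18 (SE 0.23) for Fn1, -0.19 for Tnc, -0.19 for Sparc, -0.16 for Mgp and -0.12 for Ccdc80, and above 0 for Vcan, Postn and Thbs2. None of the 9 was called in that fit, where 14.5% of all genes were. These terms rest on MTO68 control replicate 2. Without it the median term moved from -0.12 to -0.37, with Fn1 at -0.61 (SE 0.20), Tnc at -0.59, Sparc at -0.36, Mgp at -0.37, Ccdc80 at -0.40, Postn at -0.33, Thbs2 at -0.80 (SE 0.44), Tgfbi at -0.01 and Vcan at 0.16, and 0% of all genes were called. The score contains the collagen genes Col1a1, Col1a2 and Col3a1, which are matrix genes themselves. The 8 remaining markers were then used, a choice made after seeing the data. The terms were -0.31 (SE 0.24) for Fn1, -0.27 (SE 0.14) for Sparc, -0.26 for Mgp, -0.25 for Tnc and -0.20 for Ccdc80. They were -0.16 for Tgfbi, -0.03 for Vcan, 0.004 for Thbs2 and 0.05 for Postn. In that fit 17.7% of all genes and none of the 9 were called. It kept MTO68 control replicate 2 and was not repeated without it. Since the score itself was lower after treatment, these terms do not separate fewer fibroblasts from a lower level in them.

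Markers of other cells were read in the same way. All 6 smooth muscle markers tested and all 3 pericyte markers tested had lower means, with medians of -0.55 and -0.41, and the pericyte channel gene Kcnj8 was called in MTO140. Endothelial markers were lower in 7 of 8 cases, with a median of -0.17, macrophage markers in 6 of 7, with a median of -0.07, and mesothelial markers in 3 of 3, with a median of -0.08. Intestinal epithelium markers were higher in 11 of 11, with a median of 0.26 and a score of -0.72 to 0.77 in controls and -0.44 to 0.83 in treated tumours. None of these lists had a gene called over 5 lines. When MTO68 control replicate 2 was left out, Kcnj8 was at -0.59 and the fibroblast list gene Col3a1 at -0.71. With all arrays they were at -0.54 and -0.62. With the epithelial score as a covariate, Tnc was at -1.84 (SE 0.21, limma adjusted p = 0.00161), 1 of 4 genes called (0.0257%), and the other 8 were not called. The part that cell composition has in the differences of the 9 genes was not tested beyond these terms.

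**Figure D4:**
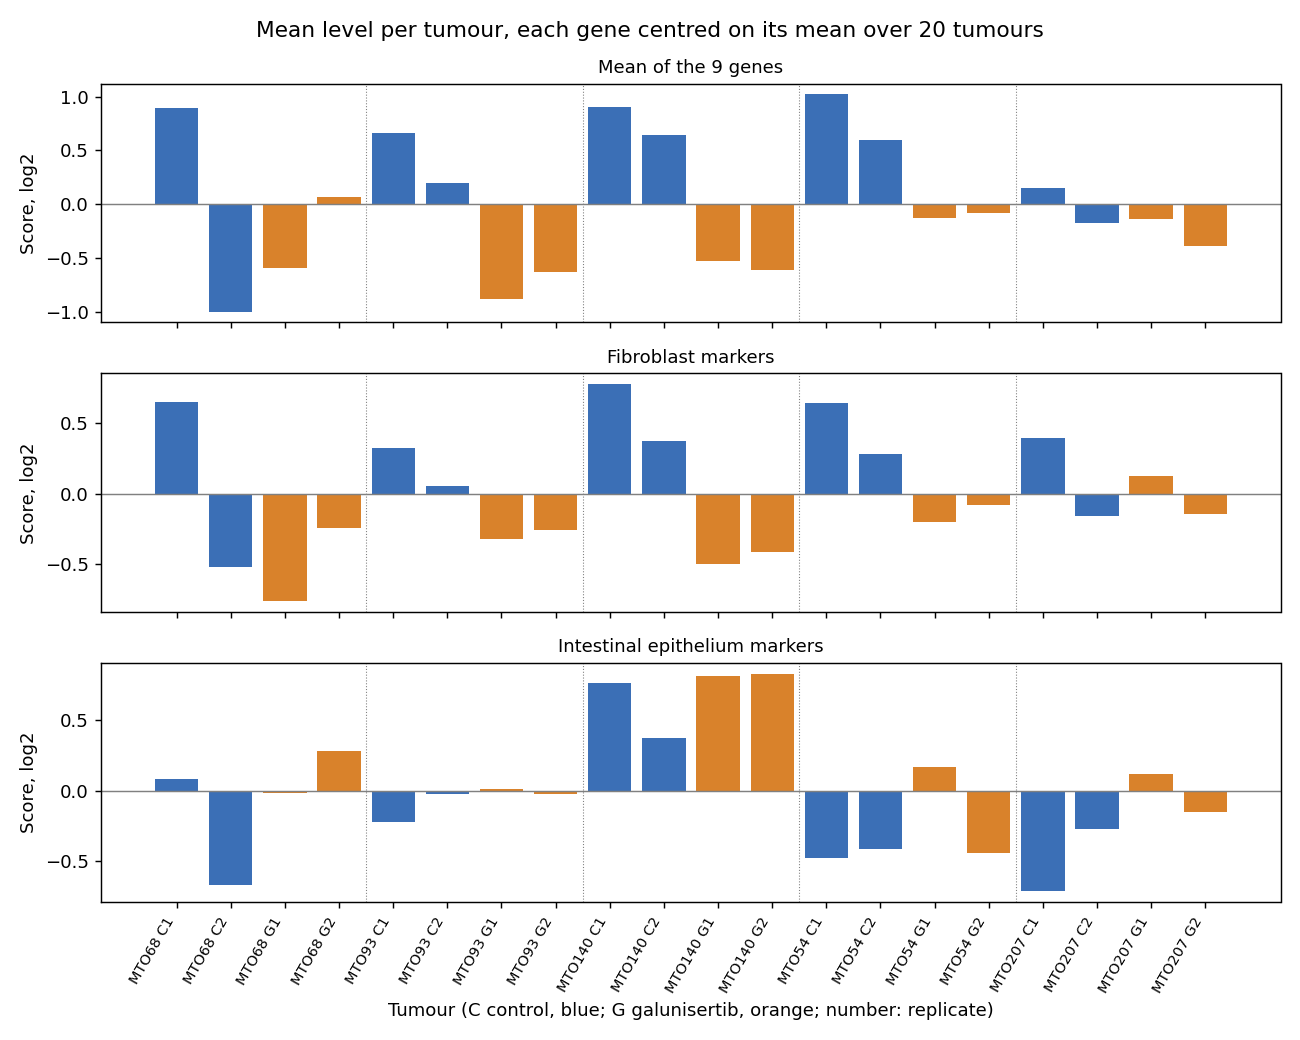
Mean of the 9 genes, fibroblast score and epithelial score (y axes, log2, each gene centred on its mean over 20 tumours) for each tumour (x axis; blue control, orange treated). The mean of the 9 genes and the fibroblast score are both lowest in MTO68 control replicate 2 among the 10 controls, and the controls of MTO93, MTO140 and MTO54 are above 0 in both.

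Within lines the 9 genes went up and down together from tumour to tumour. With each gene taken from the mean of its line, Pearson r between members over 20 tumours ran from 0.36 to 0.94, with a median of 0.74, and all 36 pairs were above 0. Taken from the mean of its line and treatment group instead, which removes the difference between treated and control tumours, r ran from 0.01 to 0.93 with a median of 0.61. Fn1 had the highest mean r with the others in both forms, 0.82 line-centred and 0.72 group-centred. The lowest mean r was that of Thbs2 line-centred, 0.59, and that of Tnc group-centred, 0.41. The points share arrays, RNA quality and cell mixture, and MTO68 control replicate 2 enters each r. With 2 tumours per group, group-centred values come in mirrored pairs, so they hold fewer than 20 separate points. For Fn1 the widest pair was that of the MTO68 controls, at 10.98 and 8.51. Without MTO68 control replicate 2 the line-centred median was 0.75, and the group-centred r was not computed.

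The genes outside the set whose line-centred levels were most like the mean of the 9 were Col5a2, with r = 0.96, Fstl1, with r = 0.95, and Tgfb3, Serpinh1 and Mxra8, with r = 0.94 each over 20 tumours. Col5a2 encodes a chain of collagen V and Serpinh1 the collagen chaperone HSP47, while Tgfb3 encodes a TGF-beta ligand. These 5 genes differed by -0.95, -0.77, -0.72, -0.77 and -0.85 over 5 lines, and none was called. For single members, Col5a2 was nearest to Fn1 (r = 0.95) and Mgp (r = 0.92), Col1a1 to Sparc (r = 0.95), Timp3 to Ccdc80 (r = 0.91), Dpysl3 to Postn (r = 0.91), Prrx1 to Vcan (r = 0.90) and Itgb5 to Tgfbi (r = 0.90). Dpysl2 was nearest to Thbs2 (r = 0.89) and the collagen crosslinker Lox to Tnc (r = 0.84).

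Receptors, partners and relatives of the 9 genes were read from 4 lists, and none of their genes passed over 5 lines. Of 12 fibronectin receptor and assembly genes tested, 9 had lower means, with a median of -0.23. The smallest p values were those of Itga5, a subunit of the main fibronectin receptor, at -0.44 (SE 0.10, limma adjusted p = 0.158, lower in 5 of 5 lines), and Itgb5 at -0.50 (SE 0.19, limma adjusted p = 0.504). Itgb1, the partner of Itga5 and named after its value was seen, was at -0.24 (SE 0.12). Of 14 genes for hyaluronan synthesis and binding, related proteoglycans and versican-cleaving proteases, 11 had lower means, but the median was -0.08. In MTO68, 2 of the 14 passed, where 2.01% of all genes were called. The protease gene Adamts5 fell there, at -0.89 (SE 0.20, limma adjusted p = 0.0407) and Adamts9 rose, at 1.49 (SE 0.34, limma adjusted p = 0.0432), and without control replicate 2 they were at -0.67 and 1.51, with adjusted p values of 0.354 and 0.244.

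Of 15 other matricellular genes tested, 13 had lower means, with a median of -0.19. Ccn4, a Wnt-inducible secreted protein, was at -0.50 over 5 lines (SE 0.11, limma adjusted p = 0.158) and fell in MTO68, at -0.99 (SE 0.24, limma adjusted p = 0.0482), where without control replicate 2 it was at -1.18 with an adjusted p of 0.142. Its relatives Ccn1 and Ccn2, classic targets of YAP and TGF-beta, were at -0.59 (SE 0.22) and -0.60 (SE 0.20), and Thbs4 at -1.22 (SE 0.30). These genes, and Sparcl1 at -0.64 (SE 0.17), a close relative of Sparc, were named after their values were seen. Fstl1, another SPARC relative, which the measure of likeness also named, was at -0.77 (SE 0.22), and at -0.92 without MTO68 control replicate 2. Of 6 receptors and modifiers of the remaining members, 3 had lower means, with a median of -0.01. Stab1, a scavenger receptor that takes up SPARC, was at -0.42 (SE 0.16), and Vkorc1, which recycles vitamin K for the carboxylation of MGP, at -0.30 (SE 0.16).

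**Figure D5:**
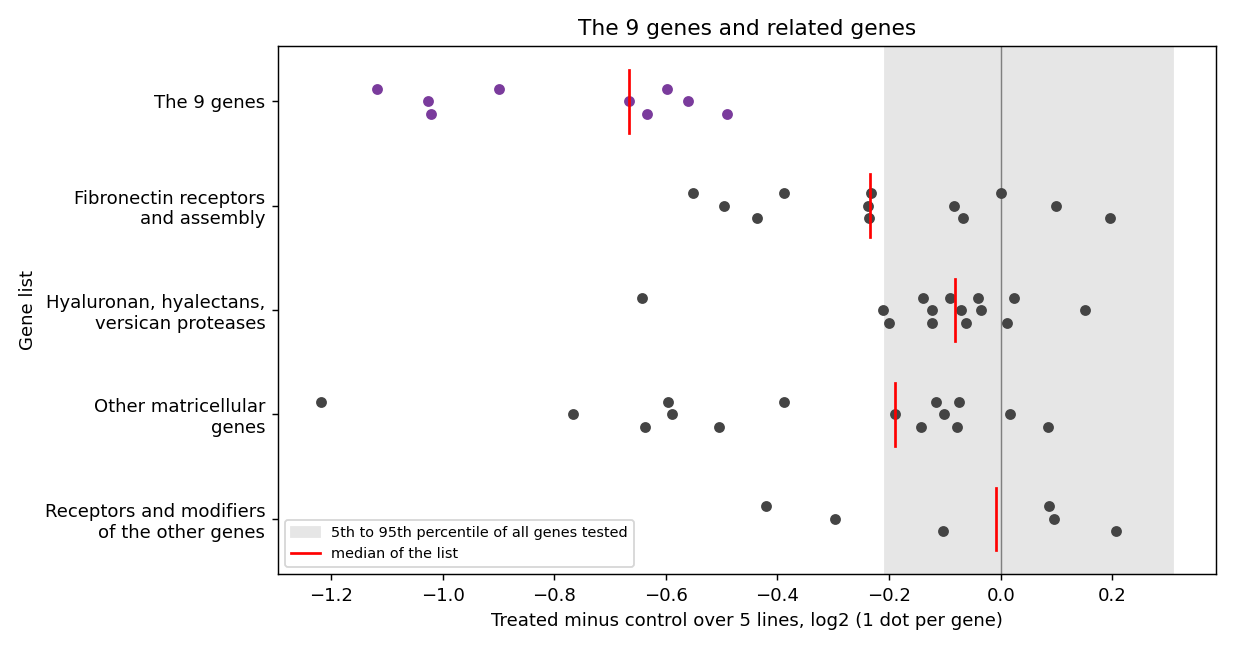
Treated minus control over 5 lines (x axis, log2, 1 dot per gene) for the 9 genes and 4 lists of related genes (y axis). Red lines are list medians, at -0.67, -0.23, -0.08, -0.19 and -0.01 from top to bottom, and the grey band runs from the 5th to the 95th percentile of all genes tested, -0.21 to 0.31. All 9 genes lie to the left of the band.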

How the data were processed

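Expression was measured in 20 tumours, with 1 biotin-labelled sample per array. The deposited values are log2 values per probe set, made by the authors with RMA and affy per the submitters' processing notes; no version or build is named there. RMA models background, equalises probe distributions and summarises probes. Of 45141 probe sets, 28898 had 1 symbol in the platform annotation, 551 several and 15692 none (104 controls among them), and 28689 matched RefSeq by Entrez ID. Each gene kept its probe set of highest mean. Genes over 4.16, the 25th percentile, on at least 2 arrays were tested. Array medians lay between 4.93 and 5.12, and 0 pairs of arrays were identical. Array SDs lay between 1.46 and 1.83, so the deposited arrays differed in scale. The number of arrays limits precision.

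Fits were made in R 4.3.3 with limma 3.58.1 (lmFit, then eBayes with a trend). Tests were two-sided at 0.05, adjusted by Benjamini-Hochberg across the 15556 genes; every adjusted p is limma's. The effect over 5 lines had the line as a block, and other comparisons used a model of 10 line-by-treatment groups with a shared spread. The fit was tested on simulated data. The label LY was read as galunisertib. The 2 tumours per group are biological replicates per the design text. Members, gene lists and motifs were chosen with earlier results of these data known. All 9 members are named. Of each related list, genes that passed over 5 lines or in a line are named, otherwise the 2 of smallest p; others are marked in the text. Like genes were those of highest line-centred r. Alternatives were other filters, probe sets, scalings, line terms, array weights, covariates, an exact permutation within lines, and omission of each array and line. The covariate of markers without collagens, and the fibroblast covariate without MTO68 control replicate 2, were added after seeing the data. Plots used matplotlib 3.10.9.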

Additional observations from a re-analysis of the deposited data

Results flagged for a closer look

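The Sparc level of MTO68 control replicate 2, 10.7 on the log2 scale, was the lowest of the 10 controls, and its gap to the next control was 0.586 of the range of the group, above Dixon's critical value for 10 samples. Chance alone marks about 5% of groups, and 9 genes were examined in 2 treatment groups. The same array had a spread and an epithelial marker score that were low within its line, as given in the report.

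In MTO68, Thbs2 in both treated tumours lay above the control mean, with a difference of group means of 1.55, and in each other line both treated tumours lay below it. The limma F test over the 5 effects gave an adjusted p of 0.563, and without MTO68 control replicate 2 the MTO68 value was 0.37.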

How the results depend on the processing

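The number of the 9 genes called over 5 lines was 0 with all arrays. It was 3 after quantile normalization of the deposited values (Fn1, Sparc and Mgp), 4 with array weights, 1 with the epithelial covariate and 2 without line MTO68 (Fn1 at -1.20, Sparc at -0.61), where 55, 116, 4 and 10 genes were called in all. In the LAKTP lines it was 2 with quantile normalization and 5 with array weights, where 31 and 223 genes were called in all. In single lines it was 2 with array weights, where 210 gene-line pairs were called in all. The array weights gave MTO68 control replicate 2 the lowest weight, 0.090, so that array counted for little there. Leaving out 1 array at a time gave between 0 and 4 over 5 lines, in the LAKTP lines, in single lines and for the difference of effect, and between 0 and 5 for control levels. The array behind the change was in each case one of MTO68. Over 5 lines it was control replicate 2. In the LAKTP lines it was control replicate 1, control replicate 2 or treated replicate 2. In single lines it was control replicate 1 or 2, for the difference of effect control replicate 1, and for control levels control replicate 1 or 2. A group left with 1 tumour is then assumed to vary like the others. Counts of all genes called moved as well, so the counts of members with an array left out are not read on their own. Over the alternatives they lay between 0 and 2756 over 5 lines (0 reported, and 2253 and 2756 with the 2 fibroblast covariates), between 0 and 1336 in the LAKTP lines (1 reported), between 43 and 8326 gene-line pairs in single lines (313 reported), between 2 and 2807 for the difference of effect (10 reported) and between 125 and 7331 for control levels (436 reported). The median difference of the 9 genes lay between -0.96 and -0.59 when 1 array was left out and was -0.12 with the fibroblast covariate, and -0.37 with that covariate and without MTO68 control replicate 2. That covariate turned Vcan to 0.037, Postn to 0.15 and Thbs2 to 0.11. Without the collagen genes in it, Postn was 0.054 and Thbs2 0.0044. With the full score and without MTO68 control replicate 2, Vcan was 0.16, while Postn and Thbs2 were back below 0, at -0.33 and -0.80. The cause was not tested. Of 377 values of single genes under alternatives, 14 passed where the reported fit did not and 6 turned sign. No paired analysis was possible because the labels give no replicate numbers, and the numbers used here only name the tumours.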
